A study of Mus musculus with 9 samples.

Results

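The genes of cholesterol and fatty acid synthesis were followed across BaF3 cells carrying 1 of 3 fusion kinases. The list named 32 genes, of which 31 were measured among 19938 genes, each read from its brightest probe set (by the mean of 9 arrays) among those annotated with that symbol alone. Acat2 was not analysed here. BaF3 is a mouse haematopoietic line that depends on interleukin-3. The cells had been infected with a retrovirus for BCR-ABL (the P210 form), BCR-RET or FGFR1OP-RET and sorted on EGFP, so all groups share infection and sorting. There were 3 arrays for each fusion, and their titles carry the numbers 1, 2 and 3 in each. The labels do not state the viral promoter, the number of clones, whether interleukin-3 was in the medium, or what a replicate number stands for, and cells without a fusion were not analysed here. They also do not say that the arrays of a fusion came from separate cultures. The p-values therefore measure only how far these arrays spread, and that spread may be technical.

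Cholesterol is built from acetyl-CoA through mevalonate, farnesyl diphosphate, squalene and lanosterol, and saturated and unsaturated fatty acids are built from the same acetyl-CoA. Most genes of both routes are targets of the SREBP transcription factors, which Srebf1 and Srebf2 encode. SCAP carries the SREBPs out of the endoplasmic reticulum when sterols are scarce, and INSIG proteins hold SCAP back when sterols are plentiful. Proliferating blood cells use both routes to make membrane. The 31 genes were ordered by role into the mevalonate pathway (6 measured), the squalene and sterol steps (11), regulators and sterol transport (5), acetyl-CoA supply (2) and fatty acid synthesis and desaturation (7).

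All values are RMA values on the log2 scale, and a log2 difference of 1 is a doubling. Medians over all probe sets lay between 8.01 and 8.04 on the 9 arrays, and arrays correlated with each other at 0.990 to 0.996 (Pearson, across probe sets, which are not replicates). Of the pro-B and interleukin-3-dependent line genes, 12 were measured. Csf2rb (mean over 9 arrays 12.50), Csf2rb2 (11.67) and Ptprc (11.67) encode receptor chains and the leukocyte phosphatase CD45. The B-lineage factor genes Pax5 and Ebf1 had means of 7.53 and 6.46. Of the other B-lineage genes on the list, Cd79b was at 9.75, Igll1 at 7.81, Vpreb1 at 7.57, Blnk at 6.99 and Cd79a at 6.05. Detection calls were not used, so presence or absence of a transcript is not settled by these levels. Csf2rb and Csf2rb2 were higher in both RET fusions than in BCR-ABL. The summed level of the 12 genes on the linear scale was 12310 to 13470 in BCR-ABL, 16670 to 18520 in BCR-RET and 16520 to 18450 in FGFR1OP-RET cells. On that scale Csf2rb, Csf2rb2 and Ptprc, the brightest of the 12, weigh most. Against BCR-ABL only Csf2rb and Csf2rb2 of the 12 genes passed. Of 7 macrophage genes Cd14 alone passed in the comparisons of fusions, by 1.06 for FGFR1OP-RET against BCR-ABL and by -1.21 for BCR-RET against FGFR1OP-RET. Ptprc was lower in BCR-RET than in FGFR1OP-RET cells (log2 difference -0.36, adjusted p = 0.0182). Of 4 erythroid genes Klf1, an erythroid transcription factor gene, was higher in BCR-RET than in BCR-ABL cells by 0.47 (adjusted p = 0.044). The summed erythroid level was 1030 to 1120 in BCR-ABL, 1255 to 1333 in BCR-RET and 1209 to 1280 in FGFR1OP-RET cells, and the part of these markers in the results was not tested. In bulk RNA, fewer cells of a type and less RNA per cell cannot be told apart.

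**Figure D1:**
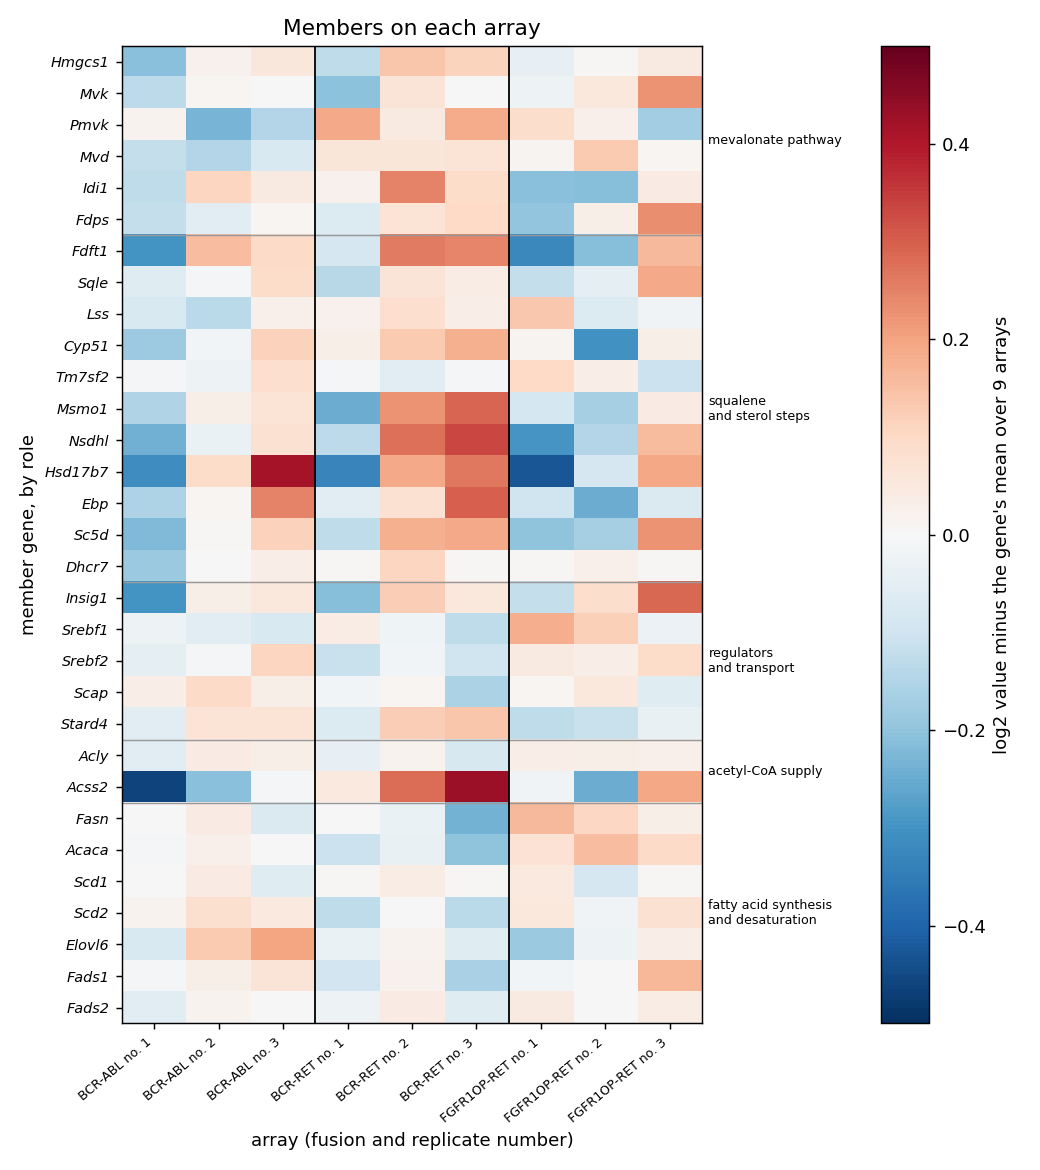
Heat map of the 31 members (rows, ordered by role) on the 9 arrays (columns, by fusion and replicate number), coloured by the log2 value minus the gene's own mean over 9 arrays. Hsd17b7 is below its mean on all 3 arrays of number 1, and Acss2 runs from 9.10 on BCR-ABL number 1 to 9.99 on BCR-RET number 3.

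No lipid synthesis gene passed a Benjamini-Hochberg adjusted p of 0.05 (limma, over all genes) in any comparison of the fusions. That fit had no term for the replicate number. For BCR-RET against BCR-ABL 0 of 31 passed, where 0.587% of all genes did. For FGFR1OP-RET against BCR-ABL 0 of 31 passed, where 1.02% of all genes did, and for BCR-RET against FGFR1OP-RET 0 of 31, where 1.33% did. The limma F test of any difference among the 3 fusions also called 0 of 31, against 1.74% of all genes. With an unadjusted p under 0.05 there were 5, 1 and 6 members in the pairwise comparisons, in the same order, and 4 in the F test, where all genes had 11.4%, 9.75%, 14.9% and 14%. The median log2 difference of the members was 0.04, 0.02 and 0.02, in that order, and that of all genes was 0.03, 0.0014 and 0.03. These comparisons share arrays pairwise, so each is given by its own values. With the replicate number as a block 1 member passed in BCR-RET against BCR-ABL (Acss2), where 1.82% of all genes did. The block called 0 members in FGFR1OP-RET against BCR-ABL (2.89%), 1 in BCR-RET against FGFR1OP-RET (Acaca, 5.69%) and 1 in the F test (Acss2, 6.01%). Same-numbered arrays met the limit for pairing, given below, only between BCR-RET and BCR-ABL.

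The intervals, from the fit without the block, give the range of differences that these arrays leave possible for each gene taken alone. They are not adjusted for the number of genes, so a gene whose interval leaves out 0 can still miss the threshold. The 95% intervals of the log2 differences lay within -1 and 1 for all 31 members in each of the 3 comparisons, and the widest bound was 0.80 for Acss2 in BCR-RET against BCR-ABL. Bounds stayed under 0.5 for 27, 29 and 26 members in the order above. The median SE of a member's difference was 0.08. Group ranges that did not overlap were found for 6 members in BCR-RET against BCR-ABL (16.6% of all genes), 2 in FGFR1OP-RET against BCR-ABL (12.1%) and 6 in BCR-RET against FGFR1OP-RET (15.3%), which are shares of 19.4%, 6.45% and 19.4% of the members.

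**Figure D2:**
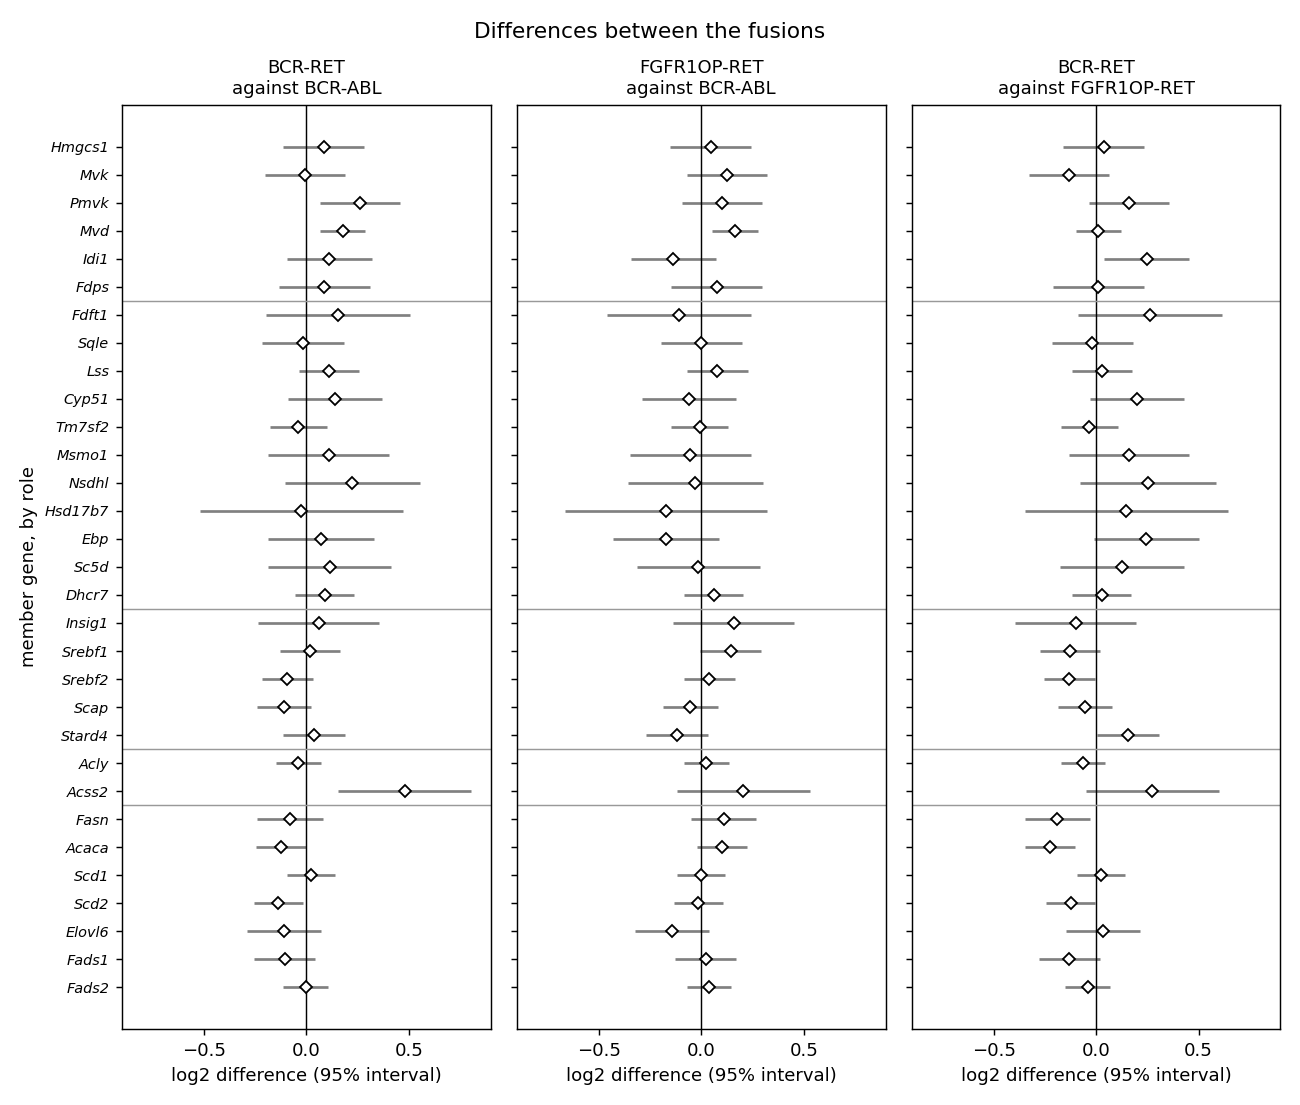
Log2 differences between fusions for the 31 members, 1 panel for each comparison, with open diamonds for the fitted difference (limma) and bars for its 95% interval. No member passed the adjusted threshold in this fit, which had no replicate block, and the differences ran from -0.22 (Acaca, BCR-RET against FGFR1OP-RET) to 0.48 (Acss2, BCR-RET against BCR-ABL).

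The enzymes that make acetyl-CoA were read next. Acss2 (probe set 10477649), which makes acetyl-CoA from acetate, was at 9.10, 9.36 and 9.56 on BCR-ABL arrays 1, 2 and 3, at 9.61, 9.85 and 9.99 on BCR-RET arrays and at 9.55, 9.32 and 9.76 on FGFR1OP-RET arrays. All BCR-RET arrays lay above all BCR-ABL arrays, while the FGFR1OP-RET arrays overlapped both. The difference of BCR-RET from BCR-ABL was 0.48 (SE 0.15, 95% interval 0.16 to 0.80, limma adjusted p = 0.263), and it passed with the replicate number as a block (SE 0.09, adjusted p = 0.0284), where 1.82% of all genes passed. The FGFR1OP-RET difference from BCR-ABL was 0.20 (interval -0.12 to 0.53). Acly, which makes acetyl-CoA from citrate, had means of 11.54 ± 0.05 in BCR-ABL, 11.50 ± 0.05 in BCR-RET and 11.57 ± 0.0036 in FGFR1OP-RET cells (SD, n = 3).

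In the mevalonate pathway the clearest separation by fusion was in its later phosphorylation and decarboxylation steps. Mvd (10582310), mevalonate diphosphate decarboxylase, was at 9.97, 9.94 and 10.01 on BCR-ABL arrays, 10.15, 10.15 and 10.16 on BCR-RET arrays and 10.10, 10.22 and 10.10 on FGFR1OP-RET arrays. Every array of either RET fusion was above every BCR-ABL array. The differences from BCR-ABL were 0.18 (SE 0.05, adjusted p = 0.238) and 0.16 (SE 0.05, adjusted p = 0.259), and neither passed. Pmvk (10493548), phosphomevalonate kinase, was at 9.38, 9.13 and 9.22 on BCR-ABL arrays, 9.55, 9.41 and 9.55 on BCR-RET arrays and 9.45, 9.39 and 9.19 on FGFR1OP-RET arrays. Its BCR-RET arrays were all above its BCR-ABL arrays by a narrow gap, with a difference of 0.26 (interval 0.07 to 0.46, adjusted p = 0.304). Idi1, the isopentenyl diphosphate isomerase gene, had means of 11.67, 11.78 and 11.53 in BCR-ABL, BCR-RET and FGFR1OP-RET cells. Its RET fusions differed by 0.25 (interval 0.04 to 0.46, adjusted p = 0.264), and its other probe set gave 0.27. Mvk (mevalonate kinase), Hmgcs1 and Fdps (farnesyl diphosphate synthase) had differences between -0.13 and 0.12 in the 3 comparisons.

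Among the squalene and sterol steps the spread inside a fusion exceeded most differences between fusions. Nsdhl (10600082), an enzyme of sterol demethylation, was at 11.39, 11.59 and 11.70 on BCR-ABL arrays, 11.49, 11.90 and 11.96 on BCR-RET arrays and 11.33, 11.48 and 11.78 on FGFR1OP-RET arrays. The 3 ranges overlapped, with number 1 the lowest in each, and BCR-RET differed from BCR-ABL by 0.22 (interval -0.11 to 0.55) and from FGFR1OP-RET by 0.25 (interval -0.08 to 0.58). Ebp (10603485), a sterol isomerase, was at 10.67, 10.83 and 11.07 in BCR-ABL, 10.77, 10.90 and 11.12 in BCR-RET and 10.72, 10.58 and 10.75 in FGFR1OP-RET cells. All BCR-RET arrays exceeded all FGFR1OP-RET arrays, by 0.25 on average (interval -0.01 to 0.50, adjusted p = 0.357). Cyp51, the lanosterol demethylase gene, also had BCR-RET arrays above all FGFR1OP-RET arrays, with means of 10.93 ± 0.08 and 10.73 ± 0.19 (SD, n = 3), though the lowest and highest of these, 10.8511 and 10.8508, almost touched. The other steps had differences of 0.27 at most, the largest for the squalene synthase gene Fdft1 between the RET fusions (interval -0.09 to 0.62, and 0.40 at its other probe set).

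Several fatty acid genes had values below 0 for BCR-RET against FGFR1OP-RET, where most sterol enzymes had values above 0. None passed in the fit without a replicate block. Below 0 were 6 of 9 genes of the fatty acid side, 3 of 17 sterol enzymes and 7865 of all 19938 genes. On FGFR1OP-RET number 2 the median deviation of the sterol enzymes from their fusion's mean was -0.05. The dependence of this contrast on single arrays was not tested. Acaca (10394538), acetyl-CoA carboxylase, which makes malonyl-CoA for chain building, was at 11.57, 11.60 and 11.57 on BCR-ABL arrays, 11.46, 11.53 and 11.37 on BCR-RET arrays and 11.64, 11.72 and 11.66 on FGFR1OP-RET arrays. The 3 fusions did not overlap at all for this gene. BCR-RET differed from FGFR1OP-RET by -0.22 (SE 0.05, interval -0.34 to -0.10, adjusted p = 0.101) and from BCR-ABL by -0.12 (adjusted p = 0.432), while its other probe set gave -0.17 and -0.0033. Fasn (10393970), fatty acid synthase, was at 12.63, 12.66 and 12.55 on BCR-ABL arrays, 12.62, 12.59 and 12.39 on BCR-RET arrays and 12.79, 12.73 and 12.65 on FGFR1OP-RET arrays. The RET fusions did not overlap, and their difference was -0.19 (interval -0.35 to -0.03, adjusted p = 0.265). Srebf2 (10425695), the SREBP gene most tied to cholesterol synthesis, was at 11.61, 11.65 and 11.76 in BCR-ABL, 11.54, 11.64 and 11.55 in BCR-RET and 11.70, 11.69 and 11.74 in FGFR1OP-RET cells. Its RET fusions did not overlap either, with a difference of -0.13 (interval -0.26 to -0.0067, adjusted p = 0.316).

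The desaturase gene Scd2 (10463355), which makes monounsaturated fatty acids, was at 13.94, 14.00 and 13.97 on BCR-ABL arrays, 13.79, 13.92 and 13.79 on BCR-RET arrays and 13.97, 13.90 and 14.00 on FGFR1OP-RET arrays. BCR-RET arrays lay below all BCR-ABL arrays, by -0.14 on average (interval -0.26 to -0.02, adjusted p = 0.383). Its relative Scd1 stayed between 6.39 and 6.52 on the 9 arrays and was the 1 member among the dimmest of 4 equal groups of genes by mean level, so no statement rests on it. Cross-hybridisation between the Scd genes was not tested. Elovl6 (10495993), an elongase, was at 12.36, 12.56 and 12.63 on BCR-ABL, 12.40, 12.45 and 12.37 on BCR-RET and 12.25, 12.41 and 12.47 on FGFR1OP-RET arrays, with all ranges overlapping and differences from BCR-ABL of -0.11 and -0.14. Fads1 and Fads2, desaturases of polyunsaturated fatty acids, differed between fusions by 0.13 or less in size. Over the 9 genes of acetyl-CoA supply and fatty acid synthesis the median difference of BCR-RET was -0.08 from BCR-ABL and -0.06 from FGFR1OP-RET, while over the 17 sterol enzymes it was 0.11 and 0.13. Over all genes it was 0.03 and 0.03. For FGFR1OP-RET against BCR-ABL the median was 0.03 on the fatty acid side and -0.0058 over the sterol enzymes. The median SE of a gene's difference was 0.05 on the fatty acid side and 0.09 for the sterol enzymes.

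By replicate number a few sterol genes passed the threshold. Arrays of number 1 were compared with those of numbers 2 and 3, with a mean for each fusion, and 5 of 31 members fell in number 1 while none rose (limma, adjusted p under 0.05). Over all genes 6.14% passed, 3.86% lower and 2.28% higher in number 1. With an unadjusted p under 0.05 there were 14 members, where all genes had 21.3%. The 5 were Hsd17b7, Insig1, Fdft1, Nsdhl and Hmgcs1, which are 4 of 17 sterol enzymes and 1 of 5 regulators, and none of the 9 genes of acetyl-CoA supply and fatty acid synthesis passed. No member passed once any 1 of the 3 number 1 arrays was left out. In 10 of 31 members number 1 was the lowest array of every fusion, a share of 32.3% against 12.5% of all genes. The share was 29.5% among the brightest of 4 equal groups of genes by mean level, which held 24 of the members. Of the 10 members 8 were sterol enzymes. In 2 members, Pmvk and Srebf1, number 1 was the highest array of every fusion, where 8.38% of all genes had that pattern.

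**Figure D3:**
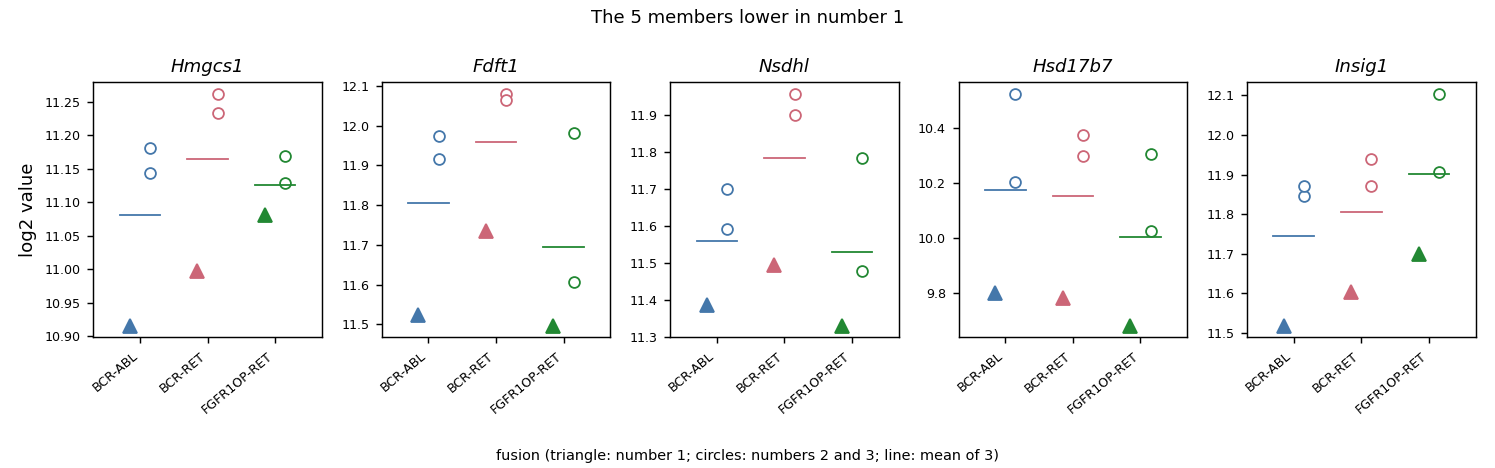
Log2 values of the 5 members that fell in number 1, by fusion, with a filled triangle for number 1, open circles for numbers 2 and 3 and a line for the mean of the 3 arrays. The triangle is the lowest point in every fusion and every gene, and each panel has its own log2 axis.

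Hsd17b7 (10359917), a ketosteroid reductase of sterol synthesis, was at 9.80, 9.78 and 9.68 on the number 1 arrays of BCR-ABL, BCR-RET and FGFR1OP-RET. On numbers 2 and 3 it was at 10.20 and 10.52 in BCR-ABL, 10.30 and 10.37 in BCR-RET and 10.02 and 10.30 in FGFR1OP-RET cells. All 3 arrays of number 1 were below all 6 others, and the gene was 1.45-fold lower in number 1 (log2 difference -0.53, SE 0.08, 95% interval -0.71 to -0.36, limma adjusted p = 0.00989). Replicate number 1 against the others took up 79.5% of the variance of this gene over the 9 arrays, and the fusion 7.2%.

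Insig1 (10520362), which retains SCAP and is itself a sterol-regulated gene, was at 11.52, 11.60 and 11.70 on the number 1 arrays. On numbers 2 and 3 it was at 11.85 and 11.87 in BCR-ABL, 11.94 and 11.87 in BCR-RET and 11.91 and 12.10 in FGFR1OP-RET cells. Again the number 1 arrays were below all 6 others, by -0.32 on average (SE 0.05, interval -0.43 to -0.20, adjusted p = 0.0134). The difference was -0.34, -0.30 and -0.31 within BCR-ABL, BCR-RET and FGFR1OP-RET.

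Fdft1 (10420730), whose enzyme commits farnesyl diphosphate to sterols, was at 11.52, 11.74 and 11.50 on number 1 arrays. Its numbers 2 and 3 were at 11.97 and 11.92 in BCR-ABL, 12.08 and 12.06 in BCR-RET and 11.61 and 11.98 in FGFR1OP-RET cells. FGFR1OP-RET number 2 lay among the number 1 arrays. The difference was -0.35 (SE 0.07, adjusted p = 0.0279), and the other probe set of the gene gave -0.53. Nsdhl, whose arrays are given above, differed by -0.33 (SE 0.07, adjusted p = 0.0280), with FGFR1OP-RET number 2 again below the highest number 1 array. Hmgcs1 (10412466), the cytosolic HMG-CoA synthase gene, was at 10.92, 11.00 and 11.08 on number 1 arrays and between 11.13 and 11.26 on the 6 others, without overlap. Its difference was -0.19 (SE 0.05, adjusted p = 0.0491), and within fusions it was -0.25 in BCR-ABL, -0.25 in BCR-RET and -0.07 in FGFR1OP-RET. The Hmgcs1 call was lost in 8 of 9 omissions of 1 array, the Fdft1 call in 7 and the Nsdhl call in 6. The Hmgcs1 call was also lost after a further quantile normalization (limma adjusted p = 0.105) and with several-symbol probe sets kept (0.0513). The same held with a variance trend (0.0525) and with the number at 3 levels (0.0516).

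The stretch of 250 bases before the start site is shown for the 4 of these 5 genes with an entry in the RefSeq promoter table (build GRCm38.p6, most upstream start of each gene), because these genes passed in number 1. The windows are chr13:119690101-119690350 on the plus strand, chrX:72918271-72918520 on the plus strand, chr1:169969206-169969455 on the minus strand and chr5:28071162-28071411 on the plus strand, each printed in the direction of the gene. Capitals mark matches, on either strand, to 3 motifs, namely TCACNCCAC (a sterol regulatory element, to which SREBPs bind), CCAAT (the motif of NF-Y, a factor known to act with SREBPs, which reads ATTGG on the other strand) and the E-box CACGTG. No matches of different motifs overlapped.
Hmgcs1: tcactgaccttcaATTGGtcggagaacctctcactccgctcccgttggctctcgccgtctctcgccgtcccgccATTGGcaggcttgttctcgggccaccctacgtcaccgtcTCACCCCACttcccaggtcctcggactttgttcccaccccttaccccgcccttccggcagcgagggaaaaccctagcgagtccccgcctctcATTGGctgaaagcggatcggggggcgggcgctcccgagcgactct
Nsdhl: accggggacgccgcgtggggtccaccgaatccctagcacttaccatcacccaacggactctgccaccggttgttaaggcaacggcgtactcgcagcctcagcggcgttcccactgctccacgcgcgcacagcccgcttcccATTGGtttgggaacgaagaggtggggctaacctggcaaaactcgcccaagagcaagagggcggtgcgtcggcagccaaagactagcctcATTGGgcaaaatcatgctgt
Hsd17b7: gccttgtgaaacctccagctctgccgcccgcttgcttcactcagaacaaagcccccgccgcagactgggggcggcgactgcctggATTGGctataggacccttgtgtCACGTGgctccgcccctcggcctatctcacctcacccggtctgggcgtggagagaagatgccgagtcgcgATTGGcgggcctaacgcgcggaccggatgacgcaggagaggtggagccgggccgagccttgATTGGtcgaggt
Insig1: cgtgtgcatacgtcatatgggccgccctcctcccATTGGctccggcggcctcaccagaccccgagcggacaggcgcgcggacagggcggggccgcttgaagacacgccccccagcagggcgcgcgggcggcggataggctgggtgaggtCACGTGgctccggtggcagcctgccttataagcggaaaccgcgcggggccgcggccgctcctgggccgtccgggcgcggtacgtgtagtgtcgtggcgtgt

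Hmgcs1 held the sterol regulatory motif as TCACCCCAC, starting 137 bases before the start site, with 3 CCAAT matches around it. Hsd17b7 held 3 CCAAT matches and 1 E-box, Nsdhl 2 CCAAT matches and Insig1 1 CCAAT match and 1 E-box. Of the 31 members 24 had an entry, and CCAAT was in 18 of them, a share of 75%, and in 34.5% of the 27025 genes in the table with windows of the same length. Among the 14 sterol enzymes with an entry 13 held CCAAT (92.9%) and 8 held it at least 2 times (57.1%, against 10.5% of all genes), while 2 of 6 genes of acetyl-CoA supply and fatty acid synthesis held it. TCACNCCAC was in 1 of 24 members and 1.03% of all genes, and CACGTG was in 3 of 24 and 6.04%. A match is a description of the letters, and no factor was measured.

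The other sterol enzymes had number differences in the same direction for the most part, without passing. Differences were below 0 in 14 of 17 sterol enzymes, 3 of 5 regulators and 7 of 9 genes of the fatty acid side, or 24 of 31 members (77.4%, against 50.2% of all genes). Among the brightest of 4 equal groups of genes by mean level, which held 24 of the members, 67.2% of all genes were below 0. After a further quantile normalization 17 of 31 members were below 0, with 13 of 17 sterol enzymes, 2 of 5 regulators and 2 of 9 genes of the fatty acid side. Sc5d, the lathosterol oxidase gene, had -0.27 (adjusted p = 0.0629), Msmo1, a methylsterol oxidase gene, -0.24 (0.114), Fdps -0.19 (0.0904), Mvk -0.18 (0.0646), Sqle, squalene epoxidase, -0.16 (0.137), Idi1 -0.16 (0.171) and Ebp -0.16 (0.348). Mvd, Cyp51 and Dhcr7, which makes cholesterol from its immediate precursor, had -0.02, -0.07 and -0.09. The exceptions were Pmvk at 0.15 (adjusted p = 0.176), the lanosterol synthase gene Lss at 0.04 and the sterol reductase gene Tm7sf2 at 0.04.

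**Figure D4:**
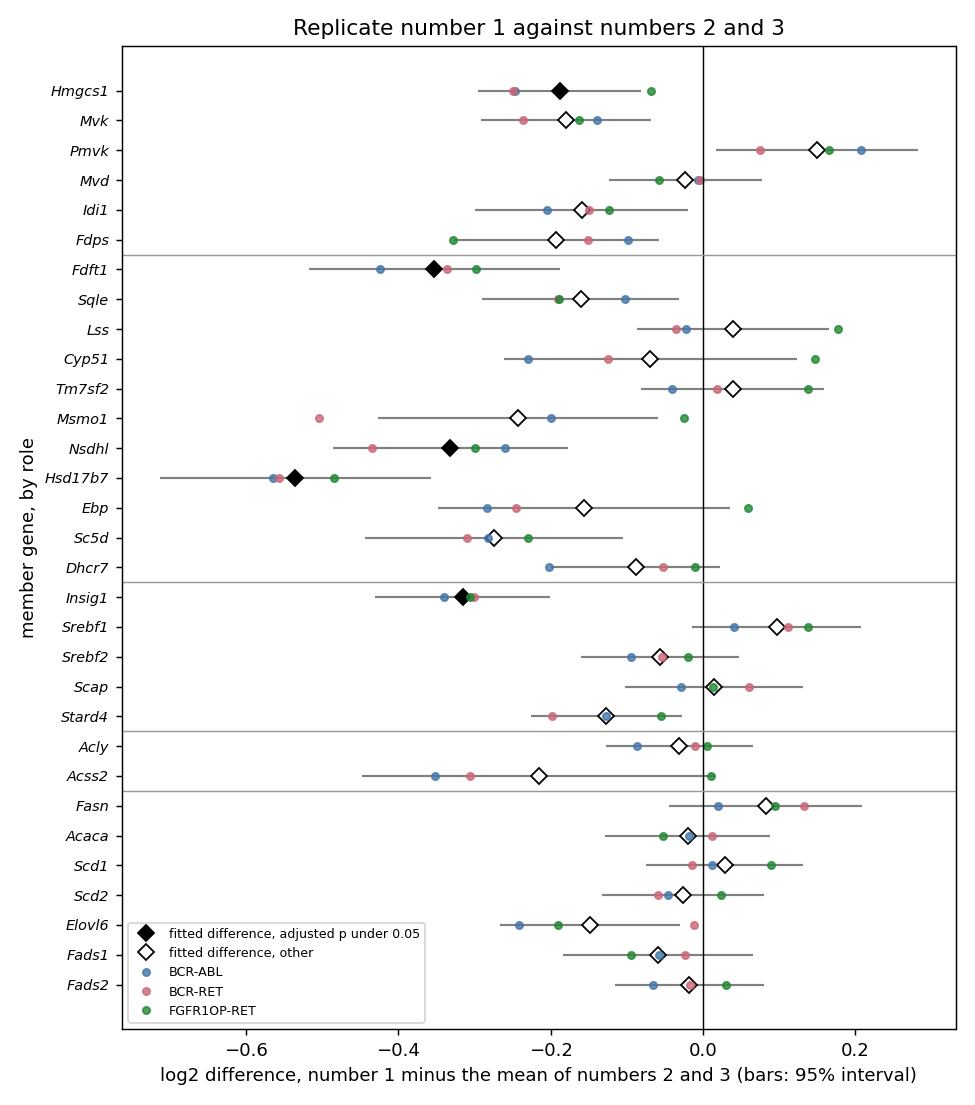
Log2 difference of number 1 from the mean of numbers 2 and 3 for the 31 members, with diamonds for the fitted difference (filled where the limma adjusted p is under 0.05), bars for the 95% interval and small dots for the difference inside each fusion. The filled diamonds run from -0.53 for Hsd17b7 to -0.19 for Hmgcs1, and the 7 genes of fatty acid synthesis and desaturation lie between -0.15 and 0.08.

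Of the 5 regulators only Insig1 passed by number, and the differences of the others had both signs. Srebf1 (10386473), the SREBP gene most tied to fatty acid synthesis, was at 10.45, 10.51 and 10.66 on number 1 arrays. It was at 10.42 and 10.40 on numbers 2 and 3 in BCR-ABL, 10.45 and 10.35 in BCR-RET and 10.59 and 10.44 in FGFR1OP-RET cells. Its difference was 0.10 (interval -0.01 to 0.21, adjusted p = 0.308), in the opposite direction to Insig1. Srebf2 had -0.06 (interval -0.16 to 0.05), Scap 0.01 (interval -0.10 to 0.13) and the sterol carrier gene Stard4 -0.13 (adjusted p = 0.125). On the fatty acid side Fasn had 0.08 (interval -0.04 to 0.21), Acaca -0.02, Scd2 -0.03, Fads1 -0.06, Fads2 -0.02, Acly -0.03 and Elovl6 -0.15 (adjusted p = 0.134). Acss2 had -0.22 (interval -0.45 to 0.02), with -0.35 and -0.31 in BCR-ABL and BCR-RET and 0.01 in FGFR1OP-RET cells. Dhcr7 had 1 repeated value, 10.74, on 4 arrays and Scd1 1 repeated value, 6.48, on 3, and no member had the same value on all arrays of a fusion.

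FGFR1OP-RET number 2 stood apart among the sterol enzymes. The median deviation of the 17 sterol enzymes from their fusion's mean was -0.13, -0.13 and -0.05 on the number 1 arrays of BCR-ABL, BCR-RET and FGFR1OP-RET. It was 0.03 and 0.09 on BCR-ABL numbers 2 and 3, 0.08 and 0.07 on BCR-RET numbers 2 and 3, but -0.05 and 0.12 on FGFR1OP-RET numbers 2 and 3. Without FGFR1OP-RET replicate 2, 12 members passed, all lower in number 1, and 14% of all genes passed. The 7 added were Mvk, Idi1, Sqle, Msmo1, Sc5d, Stard4 and Acss2. Without the number 1 array of BCR-ABL, BCR-RET or FGFR1OP-RET no member passed, where 1.1%, 0.0451% and 0.316% of all genes passed. Hsd17b7 and Insig1 passed without each of the 6 arrays of numbers 2 and 3, their differences staying between -0.58 and -0.49 and between -0.34 and -0.29 over all 9 omissions. The other omissions left 2 members (BCR-ABL replicate 3, BCR-RET replicates 2 and 3), 3 (BCR-ABL replicate 2) or 4 (FGFR1OP-RET replicate 3). A test of whether the number difference itself differed among the fusions, chosen after seeing the data, called 0 of 31 members and 0 of all genes (limma F test), with an unadjusted p under 0.05 for Msmo1 alone.

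The number difference also varied with signal level over all genes. Of 4 equal groups of genes by mean level, the brightest held 24 of the 31 members, and its median difference was -0.06, with 9.23% of its genes lower in number 1 and 29.5% with number 1 lowest in every fusion. Of the 24 members 4 fell, and Hsd17b7, in the group below it (5.3% lower), was the other. In the 3 dimmer groups, from the dimmest up, the medians were 0.0081, 0.01 and 0.0043. With a further quantile normalization over the tested genes the brightest group's median was -0.0032, and Hsd17b7, Insig1, Fdft1 and Nsdhl still passed (-0.51, -0.24, -0.28 and -0.26), while Hmgcs1 did not (-0.13, adjusted p = 0.105). The median over members went from -0.09 to -0.03, that over the sterol enzymes from -0.16 to -0.105, that over regulators from -0.06 to 0.02 and that over the fatty acid side from -0.03 to 0.04. The part of signal level in these differences was not tested further.

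**Figure D5:**
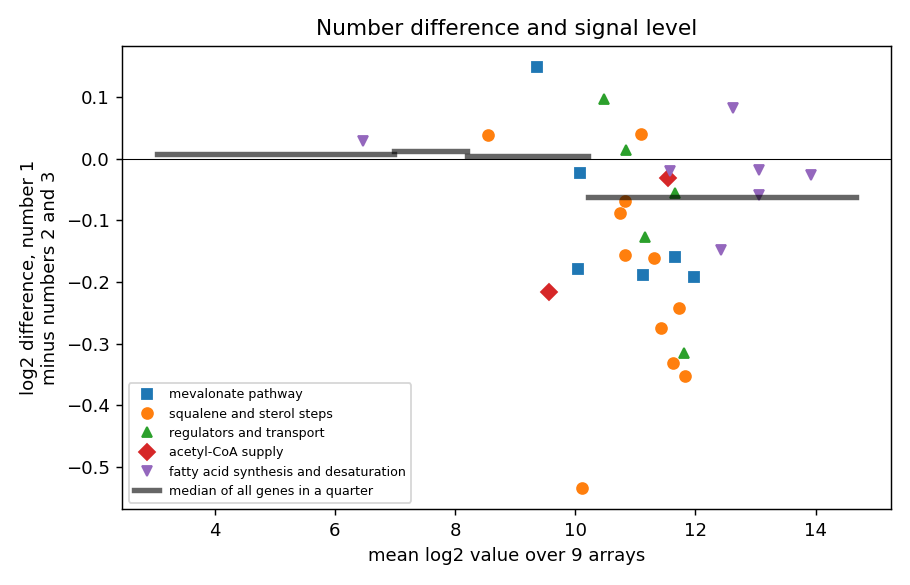
Log2 difference of number 1 from numbers 2 and 3 against the mean log2 value over 9 arrays for the 31 members, with a marker for each role and grey bars for the median of all genes in each of 4 groups by mean level. The brightest group's bar is at -0.06, and Hsd17b7 and the other 4 members that fell lie below the bars.

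Genes around the 2 routes changed by number in both directions, where 3.86% of all genes were lower and 2.28% higher in number 1, and none passed in a comparison of fusions. Of 16 genes of sterol sensing, trafficking and isoprenoid synthesis, Insig2, the second INSIG gene, rose in number 1 by 0.24 (adjusted p = 0.0296) and Acat1, mitochondrial acetoacetyl-CoA thiolase, fell by 0.21 (adjusted p = 0.0446). The difference of Insig2 was thus opposite in sign to that of Insig1. Of 11 LXR targets and efflux genes, the phospholipid acyltransferase gene Lpcat3 fell by 0.34 and the transporter gene Abcg4 rose by 0.22. Of 28 other lipid synthesis genes, Agpat3, Acsl4 and the elongase gene Elovl1 fell by 0.28, 0.24 and 0.21 and the phosphatidate phosphatase gene Lpin1 rose by 0.35. Of 19 fatty acid oxidation genes 4 fell, namely Hadhb (-0.44), Cpt1a (-0.33), Acadm (-0.22) and Slc25a20 (-0.17), and the nuclear receptor gene Ppard rose by 0.47. The calls in these lists were not examined with an array left out or under another normalization. Without BCR-RET replicate 1 only 0.0451% of all genes passed by number. The list medians were -0.09, -0.00018, -0.01 and -0.05, in that order, beside -0.16 for the sterol enzymes and -0.00027 for all genes. Number 1 was the lowest array of every fusion in 6 of 16, 3 of 11, 9 of 28 and 6 of 19 genes, in the same order. The members had that pattern in 10 of 31, and all genes in 12.5%. For the 3 comparisons of fusions, these 4 lists had 0 genes past the adjusted threshold (limma), with 0 to 4 genes of a list at an unadjusted p under 0.05, where all genes had 11.4%, 9.75% and 14.9%.

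Markers of the line itself and of other cells did not pass in the number comparison. The nearest were the erythroid gene Klf1 (0.17, limma adjusted p = 0.0589) and the macrophage gene Adgre1 (-0.31, adjusted p = 0.0609). None of 12 pro-B and interleukin-3-dependent line genes, 6 T cell, 7 macrophage, 8 fibroblast and stroma or 4 erythroid genes was called, with 3, 0, 1, 0 and 2 at an unadjusted p under 0.05 (limma), where all genes had 21.3%. Summed linear levels overlapped between number 1 and numbers 2 and 3 for every list, at 12310 to 17240 and 12960 to 18520 for the pro-B and interleukin-3-dependent line, 950.5 to 1089 and 963.6 to 1092 for T cells, 2565 to 2626 and 2591 to 3175 for macrophages, 1830 to 2100 and 1879 to 1998 for stroma and 1120 to 1333 and 1030 to 1276 for erythroid cells. These ranges pool the fusions. Within each fusion number 1 had the lowest macrophage sum, at 2565 against 2591 and 2681 in BCR-ABL, 2592 against 2800 and 2616 in BCR-RET and 2626 against 3175 and 3137 in FGFR1OP-RET cells. It had the highest erythroid sum in each, at 1120 against 1030 and 1076, 1333 against 1276 and 1255, and 1280 against 1223 and 1209, in the same order. A linear sum weighs the brightest genes most. Taken by gene, the number difference was below 0 in 5 of 7 macrophage genes. It ran from -0.31 for Adgre1 to 0.09 for Marco, with -0.08 for Cd68, the brightest. The erythroid genes had 0.17 (Klf1), 0.12 (Slc4a1), 0.0016 (Alas2) and -0.02 (Epor). The part of these markers in the differences of the members was not tested. Over the 31 members the median share of a gene's variance that went with number 1 was 23.6%, and with the fusion 33.8%. For the 17 sterol enzymes these were 45.1% and 26.6%, for the 9 genes of the fatty acid side 10.4% and 42%, and for all genes 11.8% and 31.2%.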

How the data were processed

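Each probe set has 1 log2 value on each array, as the authors deposited it. Per the submitters' processing notes, RMA was run in Affymetrix Expression Console. Its version is not stated in the labels. Of 35557 probe sets 21789 had 1 symbol in the platform annotation, 1621 several and 12147 none, and only the first were tested, 1 per gene. Differences were fitted with limma 3.58.1 (lmFit, eBayes) in R 4.3.3 on all 9 arrays and 19938 genes. The fit was also run on simulated data with independent noise between arrays. That run checked the estimated differences and cannot show whether the real arrays are independent. The threshold was a Benjamini-Hochberg adjusted p of 0.05 over all genes. The number comparison had the fusion as a term. The members and lists were chosen with earlier results of these data known. Genes given array by array are those that passed and, in each comparison, the 3 highest and 3 lowest members. From other lists up to 6 genes that passed are named, with some marker genes for their level or their adjusted p. As a check of pairing, same-numbered arrays of BCR-ABL and BCR-RET had deviations that correlated across genes at 0.617, 0.155 and 0.367 (Pearson), all over the limit of 0.1. With FGFR1OP-RET, number 2 gave -0.128 and -0.152, so those numbers were not treated as pairs. The number of arrays limits precision. Alternatives changed the normalization, the filter, the probe sets, the variance model, the block and the arrays.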

Additional observations from a re-analysis of the deposited data

How the results depend on the processing

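In the fusion comparisons no member passed under any alternative except the replicate block, which called 1 member each in BCR-RET against BCR-ABL (Acss2), BCR-RET against FGFR1OP-RET (Acaca, adjusted p = 0.0400) and the F test (Acss2), with 362, 1135 and 1199 of all genes in place of 117, 265 and 347. In FGFR1OP-RET against BCR-ABL the block called 0 members and 576 genes in place of 203. Only BCR-RET and BCR-ABL met the limit for pairing. With the 6 arrays of a pair alone, 56, 94 and 34 genes passed in the 3 pairwise comparisons. Leaving out 1 array gave 28 to 114, 70 to 185, 86 to 194 and, for the F test, 148 to 287 genes. For the replicate number it gave 0 to 12 members in place of 5, and 9 to 2791 genes in place of 1224. The members' median ranged from -0.0039 to 0.12, from -0.01 to 0.05, from -0.0075 to 0.04 and, for the number, from -0.13 to -0.06. That last median was -0.0349 after a further quantile normalization and -0.0252 within FGFR1OP-RET, and the cause was not tested. Hsd17b7 in FGFR1OP-RET against BCR-ABL, -0.17 and not called, ranged from -0.36 to 0.0028, the latter without BCR-ABL replicate 3. Hmgcs1 in number 1 did not pass with several-symbol probe sets kept (adjusted p = 0.0513), with a variance trend (0.0525) or with the number at 3 levels (0.0516). Within 1 fusion the number has 1 array against 2 and no count of members was computed.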
